A study of Mus musculus with 3 samples.

Results

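ON and OFF bipolar cells of the mouse retina were compared at postnatal day 14 (P14) in single cells of 5 retinas. Of the 578 P14 cells that the deposited annotation names bipolar cells, 412 were taken: 370 ON cells, which held at least 1 unique molecular identifier (UMI, a tag that counts a transcript once) of *Isl1* or *Grm6* and none of *Grik1*, and 42 OFF cells, which held at least 1 UMI of *Grik1* and none of *Isl1* and *Grm6*. The series holds 14611 cells in all, of which 3298 came from the P14 library. The study bred an allelic series of *Sstr2*, a somatostatin receptor, and its P14 library pooled 1 wild-type (*Sstr2* +/+), 2 heterozygous (*Sstr2* +/-) and 2 knockout (*Sstr2* -/-) samples, each called a retina here, though the number of animals behind a sample is not given in the sources used here. All 5 were labelled C57BL/6 / CD1, from a founding pair of C57BL/6NCrl background, carried no other treatment, and differed by the *Sstr2*em1(IMPC)Mbp allele, which is a germline allele and needs no Cre driver. The comparison was made within each retina, ON against OFF, so that genotype was shared by both sides. The cells were chosen by their UMIs of *Isl1*, *Grm6* and *Grik1*, and these 3 genes are therefore not among the results.

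Bipolar cells carry the signal of rods and cones to the inner retina, and they divide by how they read the glutamate that photoreceptors release in darkness. ON bipolar cells use the metabotropic receptor mGluR6, the product of *Grm6*, which acts through the G protein Go to close the cation channel TRPM1, so that they depolarize when light lowers glutamate. OFF bipolar cells use ionotropic kainate and AMPA receptors, among them the subunit encoded by *Grik1*, and depolarize when glutamate rises. Rod bipolar cells, the single type that serves rods, are ON cells marked by protein kinase C alpha, while cone bipolar cells comprise several ON and several OFF types.

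The 250 bases before the transcript start are printed for 3 genes of the mGluR6 cascade that were higher in ON cells and for 2 genes that were higher in OFF cells. They are a choice from the matched promoters, and each holds a match to the motifs below. Among the matched promoters not printed, those of *Nyx*, *Fezf2*, *Cacna2d2* and *Dscam* hold none. All sequences were read from RefSeq for build GRCm38.p6, 5′ to 3′ on the strand of the gene, at the first listed start. Capitals mark TAATCC (the core that OTX2 and CRX bind), TAATTA (a core of other homeodomain factors) and CANNTG (the E-box of basic helix-loop-helix factors), each searched on both strands. *Trpm1* is on the + strand at chr7:64153585-64153834, *Gpr179* on the - strand at chr11:97352357-97352606, *Gng13* on the + strand at chr17:25716922-25717171, *Cacng2* on the - strand at chr15:78119281-78119530 and *Kcnip4* on the - strand at chr5:49285660-49285909.
Trpm1 promoter: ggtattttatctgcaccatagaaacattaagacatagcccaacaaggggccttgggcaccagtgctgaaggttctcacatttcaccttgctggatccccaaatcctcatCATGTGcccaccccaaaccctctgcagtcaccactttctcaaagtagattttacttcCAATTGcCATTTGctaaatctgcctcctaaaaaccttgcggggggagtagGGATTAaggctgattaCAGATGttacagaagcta
Gpr179 promoter: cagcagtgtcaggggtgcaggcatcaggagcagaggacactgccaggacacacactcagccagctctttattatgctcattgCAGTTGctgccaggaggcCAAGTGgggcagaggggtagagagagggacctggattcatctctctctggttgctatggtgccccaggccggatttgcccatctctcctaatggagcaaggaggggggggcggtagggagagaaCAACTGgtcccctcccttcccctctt
Gng13 promoter: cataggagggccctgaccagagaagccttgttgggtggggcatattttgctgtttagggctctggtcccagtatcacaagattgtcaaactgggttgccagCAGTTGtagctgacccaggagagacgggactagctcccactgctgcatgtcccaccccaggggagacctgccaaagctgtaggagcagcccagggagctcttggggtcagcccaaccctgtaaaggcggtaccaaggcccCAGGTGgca
Cacng2 promoter: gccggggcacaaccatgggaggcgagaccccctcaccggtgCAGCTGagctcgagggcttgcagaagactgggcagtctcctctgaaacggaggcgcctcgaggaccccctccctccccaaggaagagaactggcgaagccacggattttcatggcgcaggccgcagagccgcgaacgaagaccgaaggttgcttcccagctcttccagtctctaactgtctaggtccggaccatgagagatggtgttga
Kcnip4 promoter: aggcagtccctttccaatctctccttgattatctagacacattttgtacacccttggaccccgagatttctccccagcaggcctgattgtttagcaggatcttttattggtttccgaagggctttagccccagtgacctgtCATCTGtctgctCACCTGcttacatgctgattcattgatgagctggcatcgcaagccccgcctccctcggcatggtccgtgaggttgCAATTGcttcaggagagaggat

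The *Trpm1* window held 1 TAATCC and 4 CANNTG matches, and it was the only one of the 5 with a TAATCC match. TAATCC was in 6.25% of all 32851 listed promoters of this length, TAATTA in 4.84% and CANNTG in 66.2%. Among promoters of the genes called higher in ON cells under all 3 scalings described below, the shares were 6.09%, 2.54% and 60.4% of 197 promoters. Among those of genes called higher in OFF cells, they were 7.14%, 1.43% and 68.6% of 70. Among promoters of all genes tested, they were 5.32%, 2.31% and 56.2% of 9323. These are descriptions of letters, and no test was made.

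The 5 retinas, always listed as wild type, heterozygous 1, heterozygous 2, knockout 1 and knockout 2, gave 145, 54, 22, 99 and 50 ON cells and 12, 6, 1, 17 and 6 OFF cells. ON cells thus made up 92.4, 90, 95.7, 85.3 and 89.3% of the ON and OFF cells of each retina. Over all retinas the share was 89.8% (exact Clopper-Pearson 95% interval 86.5 to 92.6, counting error only). ON cells outnumbered OFF cells in every retina, and the OFF side of heterozygous 2 was a single cell of 2229 UMIs, in which 1 UMI equals 449 CPM (UMIs scaled to a common total per sum). Of the other bipolar cells, 142 held UMIs of both definitions and 24 of neither, and these entered no class.

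Most cells of either class held more than 1 defining UMI. Of the ON cells, 306 held UMIs of both *Isl1* and *Grm6*, 41 of *Isl1* alone and 23 of *Grm6* alone, and 25 stood just inside the rule with exactly 1 defining UMI. Of the OFF cells, 5 held exactly 1 UMI of *Grik1* and 37 held 2 or more. Of the 142 cells with both, 90 stood just outside the ON class by exactly 1 *Grik1* UMI, and *Isl1* and *Grm6* UMIs together exceeded those of *Grik1* in 126. Rods, which should lack all 3 genes, gave a measure of free RNA: 7.0% of them held an *Isl1* UMI, 12.3% a *Grm6* UMI and 2.73% a *Grik1* UMI, against 82.7%, 79.8% and 31.8% of bipolar cells. The median rod held 3374 UMIs and the median bipolar cell 3939.5. With every cell thinned to 2000 UMIs, the shares were 4.15%, 6.84% and 1.57% in rods and 76.4%, 71.6% and 17.1% in bipolar cells. The median ON cell held 3696.5 UMIs, the median OFF cell 2694, the median cell of both definitions 6513.5 and the median cell of neither 2101. The class with both definitions was thus the deepest, and the part of depth, free RNA and doublets in its size was not tested.

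**Figure D1:**
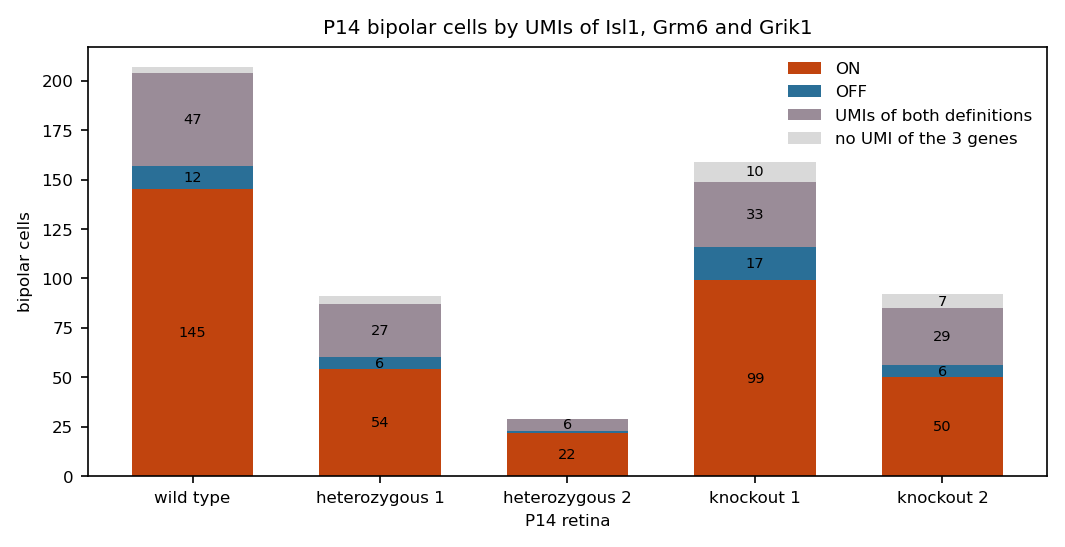
Stacked counts of P14 bipolar cells (y axis) in each retina (x axis), coloured by class. The share of ON among ON and OFF cells ran from 85.3% in knockout 1 to 95.7% in heterozygous 2, whose OFF side is 1 cell.

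Raw UMIs were summed per retina and class, giving 10 sums, and genes were tested on them with retina as a block. The ON sums held 1973384 UMIs and the OFF sums 151732, so that 1 UMI equals 6.59 CPM over the pooled OFF cells and a count of 0 there allows up to 19.8 CPM. Of 9197 genes tested, 385 differed (4.19%), 302 of them higher in ON cells (3.28%) and 83 in OFF cells (0.902%), by edgeR's quasi-likelihood test at a Benjamini-Hochberg adjusted p under 0.05, the test behind every adjusted p below, and every log2 fold change below is ON minus OFF. Without heterozygous 2, 332 genes were higher in ON cells and 102 in OFF cells, which kept 265 of the 302 and 77 of the 83. The split depended on the scaling: TMM, the main one, placed the median of all genes at 0.46 on the log2 scale, DESeq2's size factors placed it at 0.24 with 177 and 103 calls, and library size alone at 0.06 with 182 and 174 calls. Every ON sum was above every OFF sum in CPM for 617 genes (6.71%), and every OFF sum above every ON sum for 69 (0.75%). With TMM, 1686 of the 9197 genes had an unadjusted p under 0.05 in either direction, the background for such counts below. Under all 3 scalings 175 genes were higher in ON cells (1.90%) and 83 in OFF cells (0.902%). Log2 fold changes below are those of the TMM fit, in which the median gene stands at 0.46, and a gene whose call was lost under another scaling is named as such. TMM gave the single OFF cell of heterozygous 2 a factor of 3.67. The other OFF sums had factors of 0.87 to 1.16 and the ON sums 0.73 to 0.80. CPM values do not use these factors.

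Among other cell types' markers, 8 rod genes summed to 7831, 3100, 9593, 5431 and 2976 CPM in ON sums. In OFF sums they were at 10808, 4491, 3140.4, 13773 and 10757 CPM. They were thus higher in OFF cells in every retina but heterozygous 2, whose OFF sum is 1 cell. Of all pooled UMIs they took 0.593% in ON cells and 1.04% in OFF cells. The sums of 7 Müller glia genes ran from 206 to 1926 CPM in ON sums and from 137 to 449 CPM in OFF sums. No rod gene passed edgeR's test, DESeq2's or limma's, nor had any an unadjusted p under 0.05, while 3 were higher in OFF cells by edgeR with library size alone or without heterozygous 2. Of 7 amacrine genes 5 were at 0 in OFF cells, as were 5 of 6 ganglion cell genes. Of 6 cone genes none passed by any of the 3 tools, and 1 had an unadjusted p under 0.05. Mitochondrial genes took 9.47 to 14.4% of UMIs in ON sums and 7.15 to 18.4% in OFF sums. Their part in the results was not tested. P14 retinas held 1266730 to 5886669 UMIs over all cell types, and the P14 library shared 4 cell barcodes with the explant library and 7 with the P0 library. *Sstr2* had 0 UMIs in all 578 bipolar cells, which allows a share of cells with a UMI of up to 0.519%, so that the genotype labels could not be checked in these cells.

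The components that couple mGluR6 to its channel were higher in ON cells. Of 11 tested members of the mGluR6 cascade 7 were higher in ON cells, against 3.28% of all genes. None was higher in OFF cells by edgeR, DESeq2, limma or an unadjusted p under 0.05. With an unadjusted p under 0.05, 9 of the 11 were higher in ON cells (1686 of all 9197 genes, either direction), so some uncalled members leaned the same way. The median log2 fold change of the 11 was 3.11 beside 0.46 over all genes. *Trpm1*, the cation channel (chromosome 7, 64153835 to 64269775, GRCm38), was at 2755, 3269, 3426, 2774 and 2779.5 CPM in ON sums and at 274, 229, 0, 446 and 0 CPM in OFF sums. Every ON sum stood above every OFF sum, and the OFF sums of heterozygous 2 and knockout 2 held none (log2 fold change 4.04 ± 0.49 SE, edgeR adjusted p = 1.31e-13). *Gnao1*, the alpha subunit of Go, was at 939, 1165, 936, 869 and 1018 CPM in ON sums and 114, 98.3, 449, 291 and 127 CPM in OFF sums. The lowest ON sum was higher than the highest OFF sum, which was that of the single cell (2.93 ± 0.44 SE, edgeR adjusted p = 1.32e-08). *Gnb3*, the beta subunit, was at 1088, 1238, 1165, 900.4 and 1339 CPM in ON sums and 183, 98.3, 0, 232 and 169 CPM in OFF sums. The groups did not overlap (3.11 ± 0.45 SE, edgeR adjusted p = 1.84e-09). *Gng13*, the gamma subunit, was at 2327, 3199, 1659.8, 1161 and 2495 CPM in ON sums and 91.4, 0, 0, 155 and 42.4 CPM in OFF sums. It had the largest difference of the 3 subunits of Go (5.04 ± 0.55 SE, edgeR adjusted p = 1.1e-16), with no overlap.

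*Gpr179*, the orphan receptor that holds regulators of G protein signaling at the dendritic tip, was at 489, 616, 586, 648 and 663 CPM in ON sums and 0, 0, 0, 77.5 and 42.4 CPM in OFF sums. The first 3 OFF sums held none and all ON sums were higher than the rest (4.58 ± 0.58 SE, edgeR adjusted p = 1.97e-12). *Pcp2*, a modulator of Go, was at 3082, 3841, 2238, 1265 and 2908 CPM in ON sums and 479.8, 229, 449, 136 and 381 CPM in OFF sums. The lowest ON sum, in knockout 1, was still above every OFF sum (3.60 ± 0.47 SE, edgeR adjusted p = 1.68e-11). *Nyx*, which encodes nyctalopin, the surface protein that TRPM1 needs at the synapse, had 102 UMIs in ON cells and 0 in OFF cells, at least 2.61-fold higher by the floor of 3 UMIs over the pooled OFF cells (edgeR adjusted p = 0.0082). Its call was lost without the wild-type retina or knockout 1 (log2 5.73 to 6.54, adjusted p = 0.0772 to 0.138). The other 6 calls of the cascade held without any 1 retina and under all 3 scalings. The regulators that end the signal did not pass the test: *Rgs7* at log2 1.05 ± 0.51, *Rgs11* at 0.78 ± 0.44, their anchor *Rgs9bp* at 0.25 ± 0.50 and their partner *Gnb5* at 1.07 ± 0.40 (SE). *Lrit3* had too few UMIs to be tested. OFF cells with a *Trpm1* UMI were 45.2% of all, beside 84.9% of ON cells and 11% of rods, and 34.4% and 79.6% of OFF and ON cells when thinned.

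**Figure D2:**
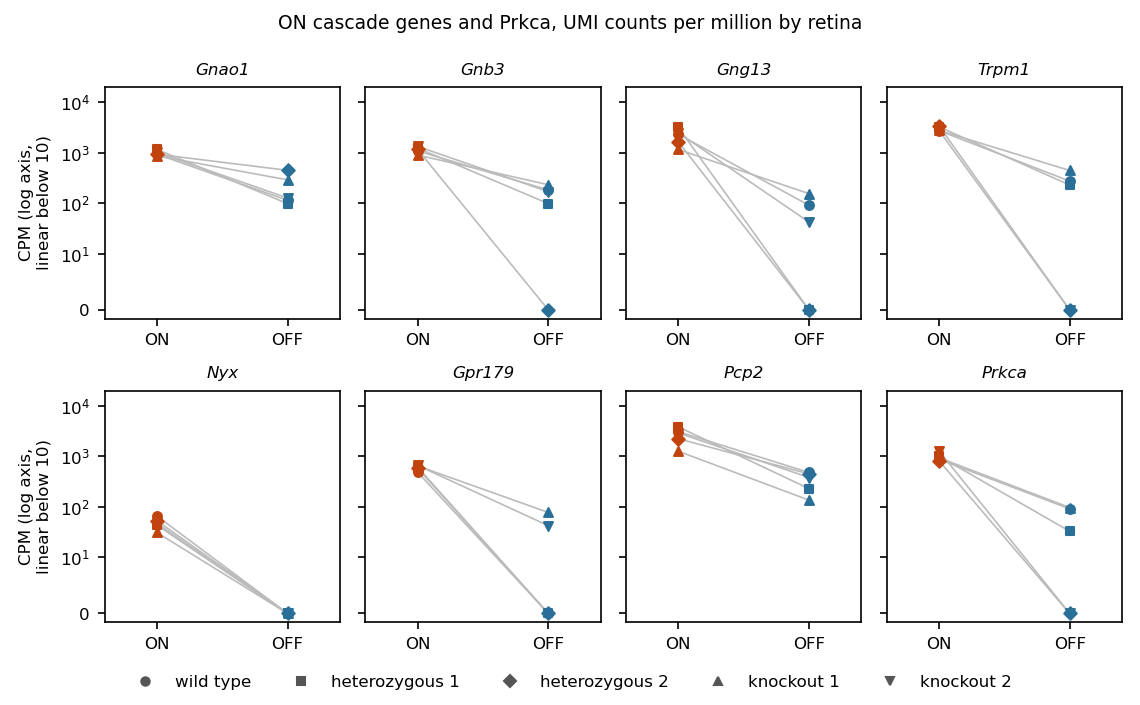
CPM on a log scale of the 7 called cascade genes and *Prkca*, with a marker for each retina and a line joining its ON and OFF sums. For each of the 8 genes every ON point lies above every OFF point, and *Nyx* had no OFF UMI in any retina.

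Markers of rod bipolar cells were all on the ON side. All 8 tested members were higher in ON cells (background 3.28%), with a median log2 fold change of 3.95, and all 8 held under the 3 scalings. *Prkca*, which encodes protein kinase C alpha, was at 877, 1014, 822, 939 and 1285 CPM in ON sums and 91.4, 32.8, 0, 96.9 and 0 CPM in OFF sums. The groups were far apart, with 1915 UMIs against 10 (4.33 ± 0.53 SE, edgeR adjusted p = 1.56e-13). *Car8*, a carbonic anhydrase-related protein that binds the IP3 receptor, was at 263, 398, 266, 187 and 328 CPM in ON sums and had 1 UMI in OFF cells, in knockout 1. The pooled ratio was 42.8 with a 95% counting interval of 7.64 to 1692 (5.65 ± 0.80 SE, edgeR adjusted p = 1.05e-09, and 9.12 without knockout 1). *Sebox*, a homeobox gene, was at 154, 317, 114, 119.7 and 179 CPM in ON sums and had no OFF UMI. It was at least 8.94-fold higher in ON cells (edgeR adjusted p = 4.68e-08). *Bhlhe23*, a basic helix-loop-helix factor of the rod bipolar lineage, had 288 ON UMIs and 1 OFF UMI, a ratio of 22.1 with a 95% counting interval of 3.94 to 878 (4.70 ± 0.87 SE, edgeR adjusted p = 9.49e-06, and 7.55 without the wild-type retina). *Prdm8*, a zinc finger factor needed for rod bipolar cells to mature, was at 263, 349, 305, 179.6 and 348 CPM in ON sums and 68.5, 0, 0, 96.9 and 84.7 CPM in OFF sums. All ON sums exceeded all OFF sums (2.44 ± 0.49 SE, edgeR adjusted p = 9.39e-05). *Vstm2b*, an immunoglobulin-domain gene, differed by 2.60 ± 0.51 (SE, adjusted p = 4.22e-05, and 5.24 without knockout 1).

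Other rod bipolar markers rested on single retinas. *Rpa1*, a subunit of a single-strand DNA-binding complex, differed by 2.12 ± 0.52 SE, edgeR adjusted p = 0.00231, and its call was lost without the wild-type retina or heterozygous 1 (log2 1.78 to 2.17, adjusted p = 0.0724 to 0.0875). The call of *Vstm2b* was lost without the wild-type retina (log2 2.02, adjusted p = 0.0733). In each of these the direction stayed the same.

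Markers of ON cone bipolar types were called for 3 genes. Of 10 tested, 3 were higher in ON cells (background 3.28%), with a median log2 fold change of 2.50. *Igfn1*, an immunoglobulin-domain gene, was at 62.4, 66.8, 83.8, 190.0 and 71.0 CPM in ON sums and had 1 OFF UMI, a ratio of 13.8 with a 95% counting interval of 2.44 to 547 (4.21 ± 0.92 SE, edgeR adjusted p = 0.000444, and 6.88 without knockout 1). It had a UMI in 19.1% of ON cells with a *Prkca* UMI and 19.9% of those without. In these cells it was thus not particular to ON cells without *Prkca*. *Cck*, the neuropeptide cholecystokinin, had 99 ON UMIs, none of them in heterozygous 2 and knockout 2, and 0 OFF UMIs, so that it was at least 2.54-fold higher (edgeR adjusted p = 0.0122). *Cdh9*, a cadherin, had 135 ON UMIs and 1 OFF UMI, a ratio of 10.4 with a 95% counting interval of 1.83 to 413 (3.70 ± 0.96 SE, edgeR adjusted p = 0.00582). The call of *Cck* was lost without the wild-type retina, heterozygous 1 or knockout 1 (log2 5.50 to 6.30, adjusted p = 0.0606 to 0.217). That of *Cdh9* was lost without the wild-type retina, knockout 1 or knockout 2 (log2 2.94 to 3.30, adjusted p = 0.0709 to 0.228), and its log2 fold change was 7.21 without heterozygous 1. Among the 7 not called were *Kcng4*, a potassium channel subunit, at 2.35 ± 0.86 (SE, adjusted p = 0.097) and *Sox6*, a transcription factor, at -0.66 ± 0.46 (SE, adjusted p = 0.478).

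Markers of OFF cone bipolar types were mostly higher in OFF cells. Of 13 tested, 7 were higher in OFF cells (background 0.902%) and 1 in ON cells, with a median log2 fold change of -1.90. *Fezf2*, a zinc finger transcription factor (chromosome 14, 12342094 to 12348189), was at 45.7, 295, 897, 136 and 84.7 CPM in OFF sums and had 2 UMIs among all ON cells, both in knockout 1. Every OFF sum was higher than every ON sum, and the pooled ratio of OFF to ON was 143 with a 95% counting interval of 35.2 to 1255 (-5.94 ± 0.75 SE, edgeR adjusted p = 1.77e-12). A UMI was found in 31.0% of OFF cells, 0.27% of ON cells and 0.484% of rods, and after thinning in 28.1% and 0% of OFF and ON cells. *Cdh8*, a cadherin, was at 823, 131, 0, 252 and 212 CPM in OFF sums and 64.8, 14.5, 38.1, 31.2 and 33.8 CPM in ON sums. The single OFF cell of heterozygous 2 held none, and the other 4 OFF sums were above all ON sums (-2.81 ± 0.41 SE, edgeR adjusted p = 1.9e-09). *Irx5*, an Iroquois homeobox factor, was at 114, 131, 0, 38.7 and 296 CPM in OFF sums and 14.7, 2.91, 0, 18.2 and 0 CPM in ON sums. It was higher in OFF cells in the 4 retinas with more than 1 OFF cell (-3.23 ± 0.59 SE, edgeR adjusted p = 8.17e-06). *Nnat*, which encodes neuronatin, was at 343, 1574, 1346, 349 and 339 CPM in OFF sums and 104, 119, 175, 104 and 91.3 CPM in ON sums. The groups did not overlap (-1.89 ± 0.34 SE, edgeR adjusted p = 4.28e-06).

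The other calls of that list depended on single retinas. *Irx6*, a second Iroquois factor, differed by -2.23 ± 0.65 SE, edgeR adjusted p = 0.0202, and its call was lost without knockout 2 (log2 -1.73, adjusted p = 0.321). *Erbb4*, a neuregulin receptor, differed by -2.71 ± 0.67 SE, edgeR adjusted p = 0.00271, and its call was lost without heterozygous 1 or knockout 2 (log2 -2.52 to -1.995, adjusted p = 0.067 to 0.224). *Neto1*, an auxiliary subunit of kainate receptors, was at 434, 0, 0, 232 and 0 CPM in OFF sums and 3.67, 2.91, 7.61, 18.2 and 74.4 CPM in ON sums. Its OFF UMIs came from the wild-type retina and knockout 1 alone (-3.07 ± 0.49 SE, edgeR adjusted p = 7.5e-08, and -4.63 without knockout 2), and the call was lost without the wild-type retina (log2 -1.57, adjusted p = 0.295). *Pcdh17*, a protocadherin, went the other way, at 2.24 ± 0.67 SE, edgeR adjusted p = 0.0266, with the call lost without the wild-type retina, heterozygous 1, knockout 1 or knockout 2 (log2 1.65 to 2.65, adjusted p = 0.0677 to 0.373) and with library size alone (log2 1.79, adjusted p = 0.095). *Fezf2* fell below 20 UMIs in all, and so was not tested, without heterozygous 1 or knockout 1. The 5 members that did not pass were *Pcdh10*, *Lhx3*, *Hcn4*, *Prkar2b* and *Bhlhe22*, and their log2 fold changes lay between -1.90 and 0.00.

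Of the 302 genes called higher in ON cells, 262 were so in every retina. Of the 83 called higher in OFF cells, 30 were. To count here, a gene higher in OFF cells needed a UMI in the single OFF cell of heterozygous 2. A gene at 0 in that cell needed only an ON UMI there to count as higher in ON cells. The 262 and 30 are therefore not comparable. Over the other 4 retinas the counts were 273 and 67. The shares of all tested genes with such agreement are not given here, so these counts are descriptions. Called genes at 0 in that cell, such as *Slitrk6* and *Irx5*, were thus left out of the ranking. The 12 with the largest fitted log2 fold change in each direction among the 262 and 30 are described. On the OFF side *Cacna2d2* (chromosome 9, 107399612 to 107529343), an auxiliary subunit of voltage-gated calcium channels, was at 274, 525, 449, 504 and 466 CPM in OFF sums and 12.2, 2.91, 7.61, 18.2 and 6.76 CPM in ON sums. The lowest OFF sum was far above the highest ON sum (-4.84 ± 0.42 SE, edgeR adjusted p = 2.81e-26). It had a UMI in 66.7% of OFF cells, 5.14% of ON cells and 3.30% of rods, and after thinning in 50% and 1.47% of OFF and ON cells. *Cntnap5a*, a neurexin-like adhesion protein, was at 823, 525, 449, 697 and 1143 CPM in OFF sums and 18.3, 11.6, 0, 67.7 and 64.2 CPM in ON sums. All OFF sums were above all ON sums (-4.12 ± 0.37 SE, edgeR adjusted p = 1.13e-25). *Fam19a3*, which encodes a small secreted protein, was at 457, 623, 1346, 619.9 and 889 CPM in OFF sums and 25.7, 26.2, 60.9, 57.3 and 3.38 CPM in ON sums. Here too the groups were apart in all 5 retinas (-3.91 ± 0.36 SE, edgeR adjusted p = 1.55e-23).

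*Cacng2*, or stargazin, an auxiliary subunit of AMPA receptors, was at 159.9, 98.3, 449, 77.5 and 127 CPM in OFF sums and 0, 2.91, 7.61, 5.20 and 3.38 CPM in ON sums. It was higher in OFF cells in all 5 retinas, from 18 OFF and 5 ON UMIs (-4.85 ± 0.71 SE, edgeR adjusted p = 2.4e-09). *Grk3*, a kinase of G protein-coupled receptors, was at 114, 65.6, 897, 136 and 84.7 CPM in OFF sums and 3.67, 2.91, 7.61, 2.60 and 0 CPM in ON sums. The groups did not overlap (-4.73 ± 0.70 SE, edgeR adjusted p = 5.08e-09). *Kcnip4*, an auxiliary subunit of A-type potassium channels, was at 319.9, 197, 897, 291 and 254 CPM in OFF sums and 25.7, 32.0, 22.8, 18.2 and 57.5 CPM in ON sums. It too showed no overlap (-2.81 ± 0.40 SE, edgeR adjusted p = 1.17e-09). *Dscam*, an adhesion molecule of neurite spacing, was at 45.7, 197, 449, 155 and 424 CPM in OFF sums and 9.78, 20.3, 22.8, 10.4 and 13.5 CPM in ON sums. The lowest OFF sum, in the wild-type retina, was above the highest ON sum (-3.16 ± 0.50 SE, edgeR adjusted p = 7.87e-08). Besides *Fezf2*, given above, the other 4 were *Adamtsl1* (-5.15 ± 0.71), *Slc16a7*, a monocarboxylate transporter (-2.97 ± 0.51), *Plxna4*, a semaphorin receptor (-2.88 ± 0.46), and *Il1rapl1*, a synaptic adhesion protein (-2.84 ± 0.79). Of the 12 calls, 7 were kept whichever retina was left out, and the other 5 had too few UMIs for a full check. *Il1rapl1* could not be tested without any 1 retina, and *Cacng2* only without heterozygous 2. *Adamtsl1* could be tested only without the wild-type retina or heterozygous 1. *Fezf2* could not be tested without heterozygous 1 or knockout 1, nor *Grk3* without the wild-type retina or knockout 1. No call was lost in the fits that could be made.

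**Figure D3:**
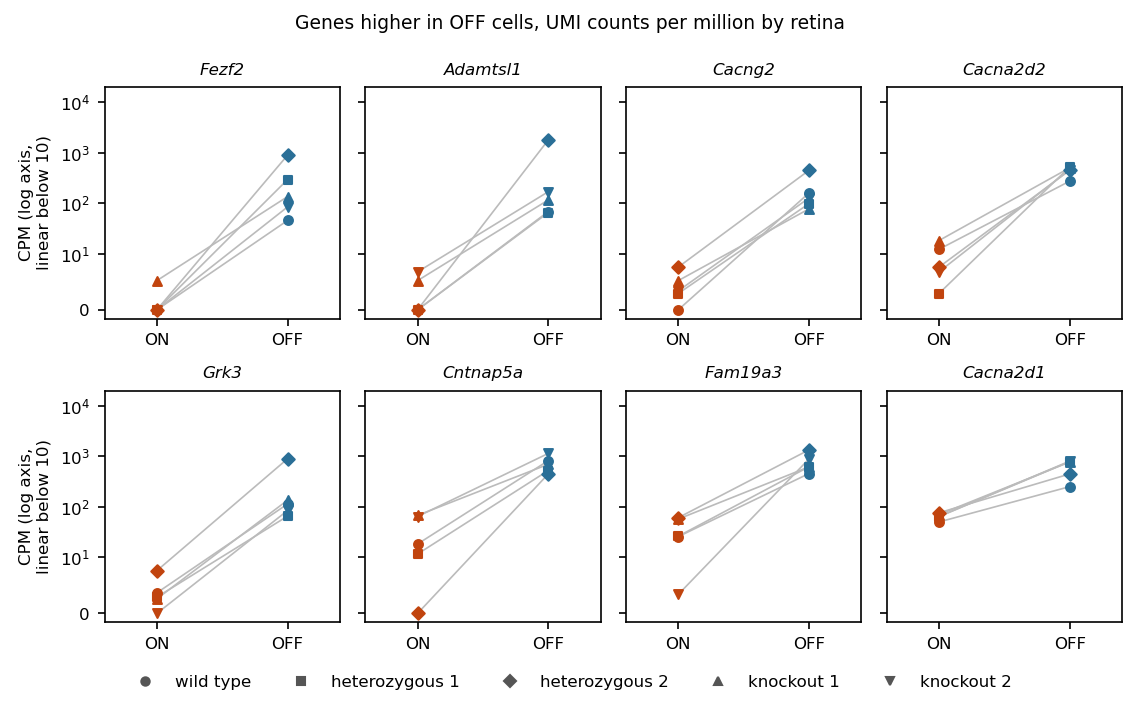
CPM on a log scale of 8 genes higher in OFF cells, with a marker for each retina and a line joining its ON and OFF sums. For *Cacna2d2*, *Cacna2d1*, *Cntnap5a* and *Fam19a3* all 5 OFF points lie above all 5 ON points, and *Fezf2* was at 0 in 4 ON sums.

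On the ON side all 12 genes had no UMI in any of the 42 OFF cells, so each is given as a lower bound by the floor. Their rank by fitted log2 fold change is thus no rank of measured ratios. *Car8* and *Bhlhe23*, which held an OFF UMI, had pooled ratios, given above, that exceed each of these bounds. *Lin7a* (chromosome 10, 107271686 to 107421474), a PDZ scaffold protein of synapses, was at 368, 375, 289, 252 and 338 CPM in ON sums. With 665 ON UMIs it was at least 17.0-fold higher in ON cells (edgeR adjusted p = 3.67e-12). *Nfix*, a nuclear factor I transcription factor, was at 66.0, 119, 68.5, 83.3 and 115 CPM in ON sums. It was at least 4.36-fold higher (edgeR adjusted p = 6.33e-05). *Dab1*, an adaptor of reelin signaling, was at least 5.00-fold higher (adjusted p = 2.86e-05), *Frat2*, an inhibitor of GSK3, at least 4.43-fold (adjusted p = 7.64e-05), and *Slc24a4*, a sodium, calcium and potassium exchanger, at least 3.84-fold (adjusted p = 0.00037). *Drd2*, a dopamine receptor, was at least 3.43-fold higher (adjusted p = 0.000892), *Rap1gap*, which switches off Rap1, at least 3.67-fold (adjusted p = 0.000654), and *Sorcs3*, a sorting receptor, at least 3.43-fold (adjusted p = 0.000594). *Dapl1* and *Hs3st4*, a heparan sulfate sulfotransferase, were at least 3.77-fold and 3.05-fold higher. These bounds are small because 0 of 151732 UMIs allows up to 19.8 CPM. Several of the 12 genes lay mainly in 1 subset of the ON cells, as given below. *Sebox* also belongs here, and *Sparc*, a matrix protein that glia also make, was at least 3.43-fold higher, with its call lost without knockout 1 (log2 6.16, adjusted p = 0.173). With cells thinned to 2000 UMIs, the calls of *Nfix*, *Frat2*, *Dapl1*, *Drd2*, *Hs3st4* and *Sparc* were lost. DESeq2's Wald test did not call *Drd2*, *Hs3st4* and *Sparc* either. In 59 of the 302 genes higher in ON cells no OFF UMI was found. These genes reached the 20 UMIs needed for testing through ON cells alone, whose sums held 1973384 UMIs. They could thus be called in 1 direction only. The share of all tested genes without an OFF UMI is not given here, so this count is a description.

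Transcription factors of bipolar cells divided between the classes. Of 28 tested, 8 were higher in ON cells and 6 in OFF cells (background 3.28% and 0.902%), with a median log2 fold change of 0.37 beside 0.46 over all genes. The nuclear factor I family was split. *Nfia* was at 229.9, 392, 426, 265 and 284 CPM in ON sums and 22.8, 164, 0, 77.5 and 84.7 CPM in OFF sums, and all ON sums were higher (2.31 ± 0.48 SE, edgeR adjusted p = 0.000129). *Nfix* had no OFF UMI. *Nfib* was at 411, 852, 1795, 542 and 1271 CPM in OFF sums and 70.9, 166, 83.8, 104 and 243 CPM in ON sums, with every OFF sum above every ON sum (-2.04 ± 0.33 SE, edgeR adjusted p = 1.48e-07). These directions held under the 3 scalings, though the call of *Nfix* was lost with cells thinned to 2000 UMIs. In ON cells with *Prkca* and no *Scgn*, *Nfia* stood near its OFF level, as given below. *Vsx1*, a homeobox factor of cone bipolar cells, differed by 1.79 ± 0.50 SE, edgeR adjusted p = 0.0141, and its call was lost without knockout 1 or knockout 2 (log2 1.25 to 1.31, adjusted p = 0.301 to 0.377). *Neurod4*, a basic helix-loop-helix factor, differed by 1.68 ± 0.39 SE, edgeR adjusted p = 0.00133, with the call lost without the wild-type retina or knockout 1 (log2 1.39 to 1.98, adjusted p = 0.0553 to 0.242).

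On the OFF side, *Zfhx4*, a zinc finger homeobox gene, was at 0 to 1097 CPM in OFF sums and 159.9 to 239 CPM in ON sums (-1.34 ± 0.34 SE, edgeR adjusted p = 0.00359), and its call was lost without the wild-type retina or knockout 2 (log2 -1.22 to -1.15, adjusted p = 0.12 to 0.273). *Sall3*, a zinc finger factor of cone bipolar and horizontal cells, had 13 OFF and 7 ON UMIs (-4.06 ± 0.76 SE, edgeR adjusted p = 1.3e-05). With so few UMIs it could be tested again only without heterozygous 2 (log2 -4.16), and not without any other retina. With *Nfib*, *Irx5*, *Irx6* and *Fezf2* these made up the 6. Factors shared by the whole class did not pass the test, among them *Otx2* at 0.62 ± 0.36, *Crx* at 0.57 ± 0.39, *Neurod1* at 0.26 ± 0.36 and *Six3* at -0.05 ± 0.36 (SE). Of 9 tested pan-bipolar and cone bipolar markers, 4 were higher in ON cells and 1 in OFF cells (background 3.28% and 0.902%), or 4 and 3 with library size alone (median 0.62). Besides factors given above, they included *Cabp2*, a calcium-binding protein with 0 OFF UMIs, at least 3.20-fold higher in ON cells (edgeR adjusted p = 0.00116), and *Gsg1*, at 0 to 1901 CPM in OFF sums and 37.8 to 259 CPM in ON sums (-2.23 ± 0.35 SE, edgeR adjusted p = 3.52e-08). DESeq2's Wald test did not call *Cabp2* (adjusted p = 0.0778). Its call was also lost with cells thinned to 2000 UMIs (edgeR adjusted p = 0.14), and it lay mainly in ON cells with *Scgn*, as given below.

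Ionotropic glutamate receptors read the photoreceptor's glutamate in OFF cells. Of 12 tested receptor and auxiliary genes, 2 were higher in OFF cells (background 0.902%), *Neto1* and *Cacng2*, and none in ON cells, where 1 had an unadjusted p under 0.05 (DESeq2 0, limma 1), with a median of -0.02. *Gria2*, an AMPA receptor subunit and the most counted of the list, was at 2673, 1279, 897, 2228 and 1609 CPM in OFF sums and 619, 395, 624, 945 and 531 CPM in ON sums. Each OFF sum was above the ON sum of the same retina, but with TMM the difference of -1.05 ± 0.36 (SE) did not pass (edgeR adjusted p = 0.0728). It passed with DESeq2's size factors (-1.30, adjusted p = 0.0086), with library size alone (-1.61, adjusted p = 5.83e-08) and without heterozygous 2 (-1.37, adjusted p = 1.06e-07). *Gria1* and *Gria4* were at 0.36 ± 0.48 and -0.43 ± 0.54, and the kainate subunit *Grik5* at -0.07 ± 0.48 (SE), none past the threshold. The other kainate subunits, *Grik2*, *Grik3* and *Grik4*, had too few UMIs to be tested. Of 13 tested genes for input by GABA and glycine (median 0.07), 1 was called in each direction (background 3.28% and 0.902%). *Gabrr2*, a GABA-C receptor subunit, was higher in ON cells at 2.55 ± 0.65 SE, edgeR adjusted p = 0.00503, and *Glra1*, a glycine receptor subunit, was higher in OFF cells at -2.07 ± 0.44 SE, edgeR adjusted p = 0.00026. The call of *Gabrr2* was lost without the wild-type retina or knockout 1 (log2 2.03 to 2.97, adjusted p = 0.0514 to 0.186) and that of *Glra1* without the wild-type retina (log2 -1.88, adjusted p = 0.0553).

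Among 29 tested voltage-gated channel genes, 2 were higher in ON cells and 5 in OFF cells (background 3.28% and 0.902%), with a median of -0.05, and the alpha2delta subunits of calcium channels stood on both sides. *Cacna2d3* was at 285, 273, 145, 229 and 213 CPM in ON sums and 91.4, 32.8, 0, 58.1 and 0 CPM in OFF sums. Every ON sum was above every OFF sum (2.62 ± 0.53 SE, edgeR adjusted p = 7.64e-05). *Cacna2d1* was at 251, 787, 449, 775 and 805 CPM in OFF sums and 50.1, 63.9, 76.1, 70.3 and 64.2 CPM in ON sums, with no overlap (-2.77 ± 0.35 SE, edgeR adjusted p = 1.05e-12), as for *Cacna2d2* above. *Cacna2d4*, the subunit paired with the photoreceptor and bipolar channel Cav1.4, differed by 0.37 ± 0.36 (SE) and did not pass, and neither did the pore subunits *Cacna1f* (0.14 ± 0.41) and *Cacna1d* (0.30 ± 0.36). *Kcnd3*, the pore of an A-type potassium channel, was higher in OFF cells (-2.60 ± 0.51 SE, edgeR adjusted p = 3.22e-05), as was its auxiliary subunit *Kcnip4*. *Scn3a*, a sodium channel, was higher in OFF cells by -1.77 ± 0.50 SE, edgeR adjusted p = 0.0144, with the call lost without the wild-type retina, knockout 1 or knockout 2 (log2 -2.06 to -1.50, adjusted p = 0.0902 to 0.18). The 3 alpha2delta calls held without any 1 retina and under the 3 scalings. *Cacna2d3* was lower in ON cells with *Scgn* and no *Prkca* than in those with *Prkca* and no *Scgn*, as given below.

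Adhesion and wiring genes were called in both directions. Of 45 tested, 8 were higher in ON cells and 9 in OFF cells (background 3.28% and 0.902%), or 6 and 13 with library size alone, with a median of 0.01. *Slitrk6*, a synaptic adhesion protein, was at 366, 229, 0, 116 and 381 CPM in OFF sums and 12.2, 14.5, 0, 15.6 and 10.1 CPM in ON sums. It was higher in OFF cells in the 4 retinas with more than 1 OFF cell (-3.93 ± 0.47 SE, edgeR adjusted p = 7.38e-14). *Lrrtm3* was higher in OFF cells (-2.66 ± 0.51 SE, edgeR adjusted p = 1.87e-05) and *Lrrtm4*, a related leucine-rich synaptic protein known at rod bipolar terminals, was higher in ON cells, with 250 ON and 2 OFF UMIs, a ratio of 9.61 with a 95% counting interval of 2.63 to 79.8 (3.48 ± 0.78 SE, edgeR adjusted p = 0.000592, and 7.76 without knockout 2). With *Cdh8*, *Dscam* and *Plxna4*, *Slitrk6* and *Lrrtm3* were the 5 calls that held without any 1 retina, though limma on SCT values called none of these. In the whole list DESeq2 called 1 gene higher in ON cells and 6 in OFF cells, and limma 7 and 0. *Sdk1* and *Sdk2*, sidekick proteins of synaptic layering, had 1 OFF UMI each, with ON to OFF ratios of 12.3 with a 95% counting interval of 2.18 to 489 and 15.1 with a 95% counting interval of 2.69 to 601 (edgeR adjusted p = 0.00195 and 0.000338). Their calls were lost without the wild-type retina or knockout 1 (log2 3.41 both times, adjusted p = 0.0667 to 0.0747) for *Sdk1* and without knockout 1 (log2 3.52, adjusted p = 0.0534) for *Sdk2*, and their log2 fold changes were 7.19 without knockout 2 and 7.57 without heterozygous 1. *Lrrtm4* lost its call without the wild-type retina (log2 2.81, adjusted p = 0.0791).

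Each of the other adhesion calls was lost without 1 or more retinas. *Cntn5*, a contactin, differed by 2.25 ± 0.59 SE, edgeR adjusted p = 0.00681, and was lost without the wild-type retina or heterozygous 1 (log2 1.76 to 1.98, adjusted p = 0.076 to 0.236), and was at 3.94 without knockout 1. *Cntnap2*, a partner of contactins, had 196 ON and 3 OFF UMIs, a ratio of 5.02 with a 95% counting interval of 1.69 to 24.6 (edgeR adjusted p = 0.0129), and was lost without the wild-type retina, heterozygous 1 or knockout 2 (log2 2.16 to 2.51, adjusted p = 0.117 to 0.159). *Cdh12* had 0 OFF UMIs, at least 1.56-fold, was lost without each retina in turn and was not called under the other 2 scalings. On the OFF side *Nxph1*, which binds neurexins, differed by -3.62 ± 0.62 SE, edgeR adjusted p = 1.16e-06 and was lost without the wild-type retina (log2 -2.48, adjusted p = 0.089). The teneurins *Tenm2* and *Tenm3* differed by -1.48 ± 0.43 and -1.34 ± 0.42, and were lost without the wild-type retina or knockout 1 (log2 -1.43 to -1.10, adjusted p = 0.241 to 0.395) and without the wild-type retina, heterozygous 1 or knockout 1 (log2 -1.37 to -0.95, adjusted p = 0.099 to 0.492). *Lsamp* differed by -1.40 ± 0.45 and was lost without the wild-type retina, heterozygous 1 or knockout 2 (log2 -1.51 to -0.85, adjusted p = 0.09 to 0.635). Of the 28 not called, *Nrxn3* was at -0.16 ± 0.37 and *Ntm* at -0.04 ± 0.34 (SE).

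Of 23 tested genes of ribbon synapses and vesicle release, edgeR called 0 in either direction (background 3.28% and 0.902%). Of these, 4 had an unadjusted p under 0.05, all higher in ON cells, DESeq2 called 1 and limma 0, and the list had a median of 0.30 beside 0.46 over all genes. Over all 9197 genes, 1686 had such a p in either direction, a share near that of the 4 of 23. *Syt1*, a calcium sensor of release, came nearest at 1.14 ± 0.37 SE, edgeR adjusted p = 0.0511, and was called without heterozygous 2 (0.95, adjusted p = 0.00374). *Ctbp2*, whose product RIBEYE builds the ribbon, was at -0.51 ± 0.35 (SE) and was called higher in OFF cells with library size alone (-0.94, adjusted p = 0.0426). *Slc17a7*, the vesicular glutamate transporter, was at -0.13 ± 0.35 (SE). Of 21 tested genes of calcium binding and signaling kinases, 7 were higher in ON cells and 1 in OFF cells (background 3.28% and 0.902%), or 7 and 3 with library size alone (median 0.98). *Pcp4*, a calmodulin-binding peptide, was higher in ON cells at 1.69 ± 0.41 SE, edgeR adjusted p = 0.00269, with the call lost without the wild-type retina, knockout 1 or knockout 2 (log2 1.29 to 1.88, adjusted p = 0.0816 to 0.231). *Rgs16* was higher in ON cells at 2.64 ± 0.65 SE, edgeR adjusted p = 0.00287, with the call lost without the wild-type retina or heterozygous 1 (log2 2.10 to 2.50, adjusted p = 0.0902 to 0.0969). *Prkcb*, protein kinase C beta, was higher in OFF cells at -1.42 ± 0.43 SE, edgeR adjusted p = 0.0283, with the call lost without heterozygous 1 or knockout 1 (log2 -1.28 to -1.27, adjusted p = 0.184 to 0.296).

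*Apoe*, a lipid carrier made mainly by glia, was also called higher in ON cells. It was at 493, 119, 83.8, 1470.3 and 105 CPM in ON sums and 0, 0, 0, 116 and 0 CPM in OFF sums. Knockout 1 was highest on both sides and held the only OFF UMIs (4.39 ± 0.63 SE, edgeR adjusted p = 1.28e-09, and 8.74 without knockout 1). Cells with neither definition held 3239.7 CPM of it. With 2 or more UMIs to define a class the call was lost (1.87, adjusted p = 0.0689), and with *Grm6* alone to define ON the difference was 1.90 (adjusted p = 0.0448). Of 6 Müller glia markers tested edgeR called *Apoe* alone, DESeq2 called 1 and limma 2, and 3 had an unadjusted p under 0.05, all higher in ON cells (1686 of all 9197 genes, either direction). *Aqp4*, another of them, was at 0 in OFF cells.

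**Figure D4:**
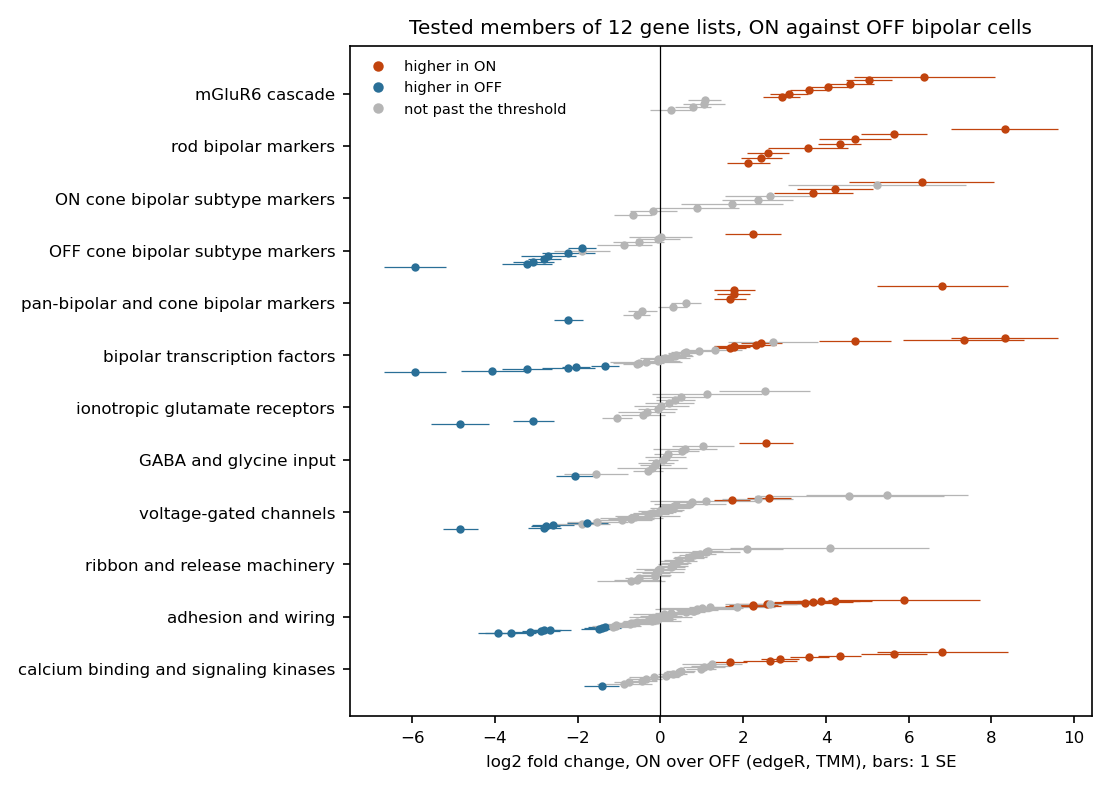
Log2 fold change, ON minus OFF, of every tested gene (point, with a bar of 1 SE) in 12 lists, coloured where past the threshold, with a line at 0. All 8 rod bipolar markers lie above 0, and 7 of 13 OFF cone bipolar markers are coloured as higher in OFF cells.

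The ON definition takes rod bipolar and cone bipolar cells alike, so the main differences were also read in ON cells with a *Prkca* UMI and no *Scgn* UMI and in those with *Scgn* and no *Prkca*, *Scgn* being a calcium sensor of cone bipolar cells. There were 183 of the first (893665 UMIs, median 3795 per cell) and 57 of the second (410506 UMIs, median 7361). These levels are descriptions with no test, since *Prkca* and *Scgn* are measured in the same cells. Some cascade genes were high in both subsets. *Gnb3* was at 1185 CPM in the *Prkca* subset and 1301 in the *Scgn* subset, beside 178 in OFF cells, and *Gng13* at 2806, 2119 and 85.7. *Lin7a* was at 473, 258 and 0 CPM, and *Bhlhe23* at 179, 134 and 6.59. Both subsets thus stood above OFF cells for these 4. *Igfn1*, listed above as a marker of ON cone bipolar types, was at 61.5, 60.9 and 6.59 CPM, alike in both subsets. Of the largest differences on the ON side, *Dab1* was at 149, 58.5 and 0 CPM, *Frat2* at 125, 85.3 and 0. *Drd2* was at 97.4, 26.8 and 0 CPM and *Sparc* at 39.2, 29.2 and 0. *Trpm1* was at 5402, 931 and 277 CPM and *Pcp2* at 4994, 677 and 297, lower in the *Scgn* subset than in the *Prkca* subset.

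Other genes were mainly in 1 of the subsets. *Sebox* was at 373, 4.87 and 0 CPM in the *Prkca* subset, the *Scgn* subset and OFF cells, *Car8* at 569.6, 24.4 and 6.59, and *Lrrtm4* at 269.7, 0 and 13.2. These 3 were low in both the *Scgn* subset and OFF cells. The same held for *Rap1gap* at 149, 7.31 and 0 CPM, *Sorcs3* at 134, 7.31 and 0, and *Slc24a4* at 150, 21.9 and 0. In the *Scgn* subset *Rap1gap* and *Sorcs3* lay under the 19.8 CPM that a count of 0 in OFF cells allows. *Cacna2d3* was at 468, 85.3 and 52.7 CPM, with the *Scgn* subset nearer to OFF cells. *Vsx1* was at 4.48, 675 and 72.5 CPM, *Cck* at 1.12, 195 and 0, and *Nfix* at 33.6, 112 and 0. *Hs3st4* was at 7.83, 107 and 0 CPM, *Dapl1* at 26.9, 153 and 0, and *Cabp2* at 11.2, 119 and 0. *Nfia* was at 86.2, 326 and 79.1 CPM, so that the *Prkca* subset stood near OFF cells. On the OFF side, *Cacna2d2* was at 5.59, 7.31 and 435 CPM and *Fezf2* at 0, 0 and 145, low in both ON subsets. *Cdh8* was at 2.24, 168 and 382 CPM, *Zfhx4* at 113, 614 and 732, and *Gria2* at 209, 869.7 and 2049.7. For these the *Scgn* subset lay between the other 2.

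**Figure D5:**
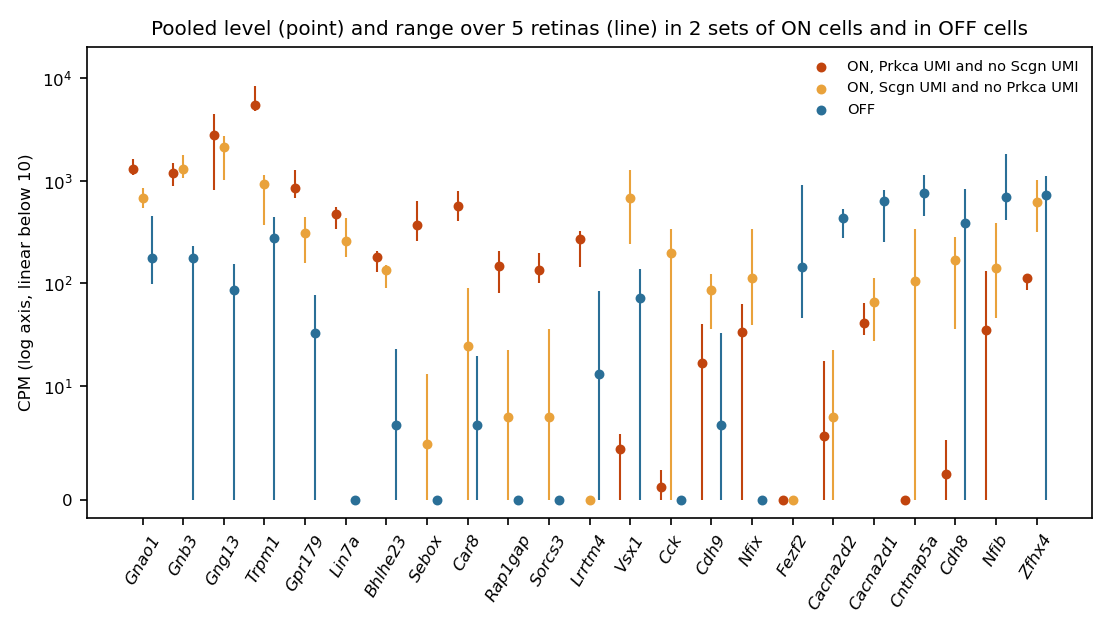
CPM on a log scale in ON cells with *Prkca* and no *Scgn*, ON cells with *Scgn* and no *Prkca*, and OFF cells, with points for the pooled level and lines for the range over 5 retinas. *Gnb3* and *Gng13* are high in both ON subsets, *Sebox* and *Car8* in the first, *Vsx1* in the second and *Cacna2d2* in OFF cells.

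The 302 genes higher in ON cells took 9.99% of UMIs in ON cells, 3.48% in OFF cells, 11.5% in the 142 cells with both definitions and 6.32% in the 24 with neither. The 83 genes higher in OFF cells took 0.363%, 2.17%, 0.488% and 1.04%. By both measures the cells with both definitions stood near the ON cells, and those with neither lay between the classes. The first 2 values of each set chose the genes and are descriptions.

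Genotype was compared over retinas. ON cells made up 87.3% ± 2.79 (SD, n = 2) of ON and OFF cells in knockout retinas and 92.7% ± 2.84 (SD, n = 3) in the others, a difference of -5.35 percentage points (two-sided exact permutation p = 0.2 over 10 splits, of which the smallest possible is 0.1), so that this design could not reach 0.05. The ON against OFF difference of 1 gene of 9197 (0.0109%) depended on knockout by edgeR's interaction test. This was *Ebf1*, a transcription factor of the early B-cell factor family, at 1348, 32.8, 0, 387 and 0 CPM in OFF sums and 4.89, 0, 0, 10.4 and 122 CPM in ON sums. OFF cells were high in the wild-type retina and knockout 1, while in knockout 2 the ON sum held UMIs and the OFF sum none. The interaction was 5.63 on the log2 scale, knockout minus other (edgeR adjusted p = 0.000162), and it was lost without the wild-type retina or knockout 2, where 0 genes passed and 141 and 178 had an unadjusted p under 0.05. In the main fit *Ebf1* was called higher in OFF cells (-4.10 ± 0.47 SE, edgeR adjusted p = 2.96e-15), at -2.21 without the wild-type retina and -6.74 without knockout 2. That direction was not shared by every retina, and neither DESeq2's Wald test nor limma on SCT values called the gene.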

How the data were processed

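At P14 the authors pooled retinas by MULTI-seq, made 10x Chromium 3' libraries (kit v3.0), counted UMIs with Cell Ranger 3.1.0 (mm10, per the submitters' processing notes), assigned cells with deMULTIplex and followed the SCT workflow of Seurat 3. The deposited raw UMI counts are whole numbers and not normalized. The deposited SCT values are natural log values, which the authors computed as ln(1 + corrected count), and served 1 alternative. Cell types and retinas are the authors' deposited labels per cell.

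Raw counts were summed per retina and class without *Isl1*, *Grm6* and *Grik1*. Of 17849 genes, 9197 with at least 20 UMIs over the sums entered edgeR's quasi-likelihood test (version 4.0.16, R 4.3.3) with TMM factors, Benjamini-Hochberg adjustment and a threshold of 0.05, with retina as a block because both sums of a pair come from the same retina. Cells are not replicates. With this block, p-values rest on how the ON against OFF difference varies over these 5 retinas and on a dispersion moderated across genes. A small p can thus go with retinas that differ in direction, as for *Neto1* and *Ebf1*. Alternatives were DESeq2 1.42.0 and, for SCT counts summed in the same way and set to log2(CPM + 1), limma 3.58.1. CPM scales each sum to a common total. The named genes were members of lists past the threshold and the 12 largest fitted log2 fold changes in each direction with the same sign in every retina. *Ebf1*, and genes named as not called, were chosen after their values were seen. Some called list members are counted but not reported here by name. The members and lists were chosen with earlier results of these data known. Of the list members, 3 are not in the file. Scrublet in scanpy 1.11.5 marked 2 P14 cells (0.0606%), which is no working call, so doublets were kept. Thinning to 2000 UMIs left out 31 ON and 10 OFF cells as too shallow. Fits were tested on simulated data. Gene positions are from GENCODE on GRCm38 and promoters from RefSeq, with 6 of the 7 called cascade genes and 6 of the 12 largest differences on the OFF side matched. Python 3.11.15, numpy 2.4.6, scipy 1.17.1, pandas 2.3.3 and matplotlib 3.10.9 were used. Explant and P0 cells were not analysed here.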

Additional observations from a re-analysis of the deposited data

Results flagged for a closer look

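In 68 sets of 5 retina values, 9 had a highest or lowest retina far from the rest by Dixon's criterion. Its chance share of about 1 in 20 is for continuous values and is no measure for sets of few UMIs. *Car8* and *Apoe* in OFF sums and *Fezf2* in ON sums held UMIs in knockout 1 alone, a pattern that the criterion always marks. The median UMI count of OFF cells was highest in heterozygous 1, at 5054. In OFF sums, *Car8* was highest in knockout 1 (19.4 CPM), as was *Apoe* (116 CPM). *Cacng2* (449 CPM), *Grk3* (897 CPM) and *Kcnip4* (897 CPM) were highest in heterozygous 2, whose OFF sum is 1 cell. In ON sums, *Fezf2* was highest in knockout 1 (5.20 CPM). *Ebf1* was highest in the wild-type retina among OFF sums (1348 CPM) and in knockout 2 among ON sums (122 CPM). Its ON against OFF difference also differed between knockout and other retinas, by 5.63 on the log2 scale (edgeR's interaction test, Benjamini-Hochberg adjusted p = 0.000162).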

How the results depend on the processing

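The counts here are, in order, ON against OFF genes past the threshold, genes higher in ON and genes higher in OFF, which were 385, 302 and 83. DESeq2's Wald test gave 190, 113 and 77, limma on SCT values 700, 682 and 18, edgeR's own filter on low counts 158, 81 and 77 of 1605 genes tested, and cells thinned to 2000 UMIs 145, 120 and 25. DESeq2's size factors gave 280, 177 and 103 and library size alone, added after seeing the data, 356, 182 and 174. Leaving out 1 retina gave 140 to 434, 94 to 332 and 41 to 102, the lowest without knockout 1 for the first 2 and without the wild-type retina for the third. Without the replicate block the fit gave 491, 387 and 104, and all 82 calls among list members and largest differences were kept. No filter, 2 or more UMIs to define a class, *Grm6* alone to define ON and 2 further settings added after seeing the data, by the larger UMI count and without the highest 5% of doublet scores, moved the total to between 298 and 491.

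The genes that depended on knockout numbered 1, but 0 with edgeR's own filter (42 at an unadjusted p under 0.05) and 0 to 2 with 1 retina left out, the 2 being *Ebf1* and *Neto1* without knockout 1. Named genes reversed by limma on SCT values were *Neto1* (0.31), *Tenm3* (0.011) and *Zfhx4* (0.098). Of these 82 calls, 58 were kept by DESeq2's Wald test, 50 of the 79 testable by limma on SCT values and 44 of the 71 testable after thinning. The causes were not tested. The OFF side held 42 cells, 1 of them in heterozygous 2.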
